A study of Mus musculus with 12 samples.

Results

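The genes described here carry, sense or relieve excess sterol. They are the liver X receptors Nr1h3 and Nr1h2, the efflux transporters Abca1 and Abcg1, the ubiquitin ligase Mylip, the esterifying enzyme Soat1, the ester hydrolases Nceh1 and Lipa, and the cholesterol hydroxylases Ch25h and Cyp46a1. They were chosen by symbol, with earlier results of these data known, and all 10 were found in the deposited tables of 56953 genes. All 10 were also among the 19278 genes that passed the filter on low counts and were tested.

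Messenger RNA of whole mouse spinal cord was sequenced in 12 libraries, 3 animals in each of 4 groups. The cKO mice carried loxP-flanked Ddx20 alleles (Ddx20flox/flox) and the transgene Plp-CreER, whose tamoxifen-activated Cre acts in oligodendrocyte-lineage cells and, outside the central nervous system, in Schwann cells. The other groups were labelled control. Cords were taken 4 or 4.5 weeks after tamoxifen, so that there was a control and a cKO group at each time. The alleles of the controls, whether they received tamoxifen, and the ages of the animals are not given in the sources used here.

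Library totals ran from 33104560 to 47677267 estimated counts. Levels are given below as CPM, counts scaled to one common library size, and mean levels carry the SD of a group's 3 libraries. Differences are log2 fold changes, cKO minus control, with a standard error (SE) and an adjusted p from edgeR's quasi-likelihood test over all tested genes. Genes with an adjusted p below 0.05 are referred to as called. Transcript of Ddx20 itself was not reduced in libraries with the cKO label, at 9.90 to 11.1 CPM against 9.78 to 11.1 at 4 weeks and 11.1 to 13.3 against 9.16 to 10.6 CPM at 4.5 weeks. Its log2 fold change was -0.03 at 4 weeks (adjusted p = 0.841) and 0.33 at 4.5 weeks (adjusted p = 0.0134), a call in the higher direction, so these libraries are named cKO-labelled. Whole cord also holds cells outside the lineage in which this Cre acts, and Ddx20 within that lineage was not measured apart. By Xist and Y-linked counts, the 4-week controls were male, 2 of the 3 cKO-labelled libraries at 4 weeks were female, and all 6 libraries at 4.5 weeks were female. In whole tissue, fewer cells of a type and less RNA per cell cannot be told apart, and the same holds for more cells and more RNA per cell.

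Cells cannot break the sterol ring, so a cell that takes up membrane, such as a microglial cell or macrophage that has engulfed myelin, must export, esterify or oxidise the cholesterol. Liver X receptors (LXR) pair with retinoid X receptors and are switched on by oxysterols and by sterol intermediates. Their best known targets lipidate apolipoprotein E outside the cell (Abca1 and Abcg1) and limit the uptake of lipoprotein (Mylip). Soat1 makes the cholesteryl esters that fill lipid droplets. Lipa frees cholesterol from esters in the lysosome, and Nceh1 acts on esters outside it. Ch25h makes an oxysterol in activated macrophages, and Cyp46a1, mainly a neuronal enzyme, makes the hydroxycholesterol that leaves the brain.

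Before any difference, the order of the genes by level per length gives their scale in this tissue. In the 4-week controls, CPM per kilobase of merged exon was 20.9 for Nr1h2, 15.8 for Nceh1, 15.5 for Cyp46a1 and 10.8 for Abcg1. Lipa followed at 4.42, Soat1 at 4.19, Abca1 at 3.17, Mylip at 2.81, Nr1h3 at 2.07 and Ch25h at 0.726 CPM per kilobase. Neighbours whose libraries overlapped in this order were Nceh1 and Cyp46a1, Lipa and Soat1, and Abca1 and Mylip. In the cKO-labelled libraries at 4.5 weeks Abca1 led at 64.8 CPM per kilobase, ahead of Abcg1 at 31.7 and Mylip at 29.0, and the libraries of those last 2 overlapped. Nr1h3 stood last there at 1.69, and Cyp46a1 next to last at 6.55 CPM per kilobase.

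Promoters are printed for Abca1, the gene with that highest level, and for Ch25h, the gene with the largest fold change among the 10 at both times. Each line holds the 250 bases before the transcription start, 5′ to 3′ on the gene's strand, from RefSeq on GRCm38.p6, where 9 of the 10 genes had an entry. The Abca1 window is chr4:53159896-53160145 on the minus strand. Its capitals mark the closest match to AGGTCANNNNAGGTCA, the direct repeat that LXR and its partner bind, which reads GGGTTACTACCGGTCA on the opposite strand of the window and differs at 3 of the fixed bases. The Ch25h window is chr19:34475149-34475398 on the minus strand, and its capitals mark TGACGTCA, a cyclic AMP response element, looked for after the sequence had been seen.
Abca1: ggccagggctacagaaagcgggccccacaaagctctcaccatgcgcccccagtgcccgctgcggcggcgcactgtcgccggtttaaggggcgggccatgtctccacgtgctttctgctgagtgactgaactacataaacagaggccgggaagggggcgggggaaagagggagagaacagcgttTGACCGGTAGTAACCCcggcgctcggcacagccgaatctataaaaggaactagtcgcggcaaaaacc
Ch25h: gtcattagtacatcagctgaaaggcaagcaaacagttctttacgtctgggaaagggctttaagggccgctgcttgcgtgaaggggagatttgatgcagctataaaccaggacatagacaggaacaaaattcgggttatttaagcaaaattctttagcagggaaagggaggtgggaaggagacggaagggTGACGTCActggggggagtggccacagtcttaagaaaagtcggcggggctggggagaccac

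Both motifs were searched on both strands of 32851 promoter windows of this length. The Abca1 match lies at -67 to -52 from the start. With at most 3 differing bases the repeat is found in 18.5% of all windows, and with at most 2 in 2.57%. Cyp46a1, which fell at 4.5 weeks, also holds a match with 3 differing bases, at -212 to -197, and the closest matches in the windows of Ch25h, Lipa, Mylip, Nceh1, Nr1h2, Nr1h3 and Soat1 differ at 4 or more bases. The exact TGACGTCA of Ch25h begins at -61, and 1.55% of all windows hold it. These are matches of letters and not measured binding.

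At 4 weeks, 4 of the 10 genes were called higher in the cKO-labelled libraries (Abca1, Mylip, Ch25h and Nr1h2) and 1 was called lower (Soat1), where 20.1% of all tested genes were called higher and 17.2% lower. The same 5 genes were called with a sex term in the model. Within a group, sex differed only among the 4-week cKO-labelled libraries, of which libraries 1 and 2 were female and library 3 male. The term rests on those libraries alone, so it cannot decide the part of sex. At 4.5 weeks, 7 were called higher (Abca1, Abcg1, Mylip, Soat1, Nceh1, Lipa and Ch25h) and 1 lower (Cyp46a1), where 33.3% of all tested genes were called higher and 32.6% lower. Nr1h3 and Nr1h2 were the pair not called at 4.5 weeks. The median log2 fold change of the 10 was 0.01 at 4 weeks and 1.62 at 4.5 weeks, beside 0.01 and 0.02 over all tested genes.

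**Figure D1:**
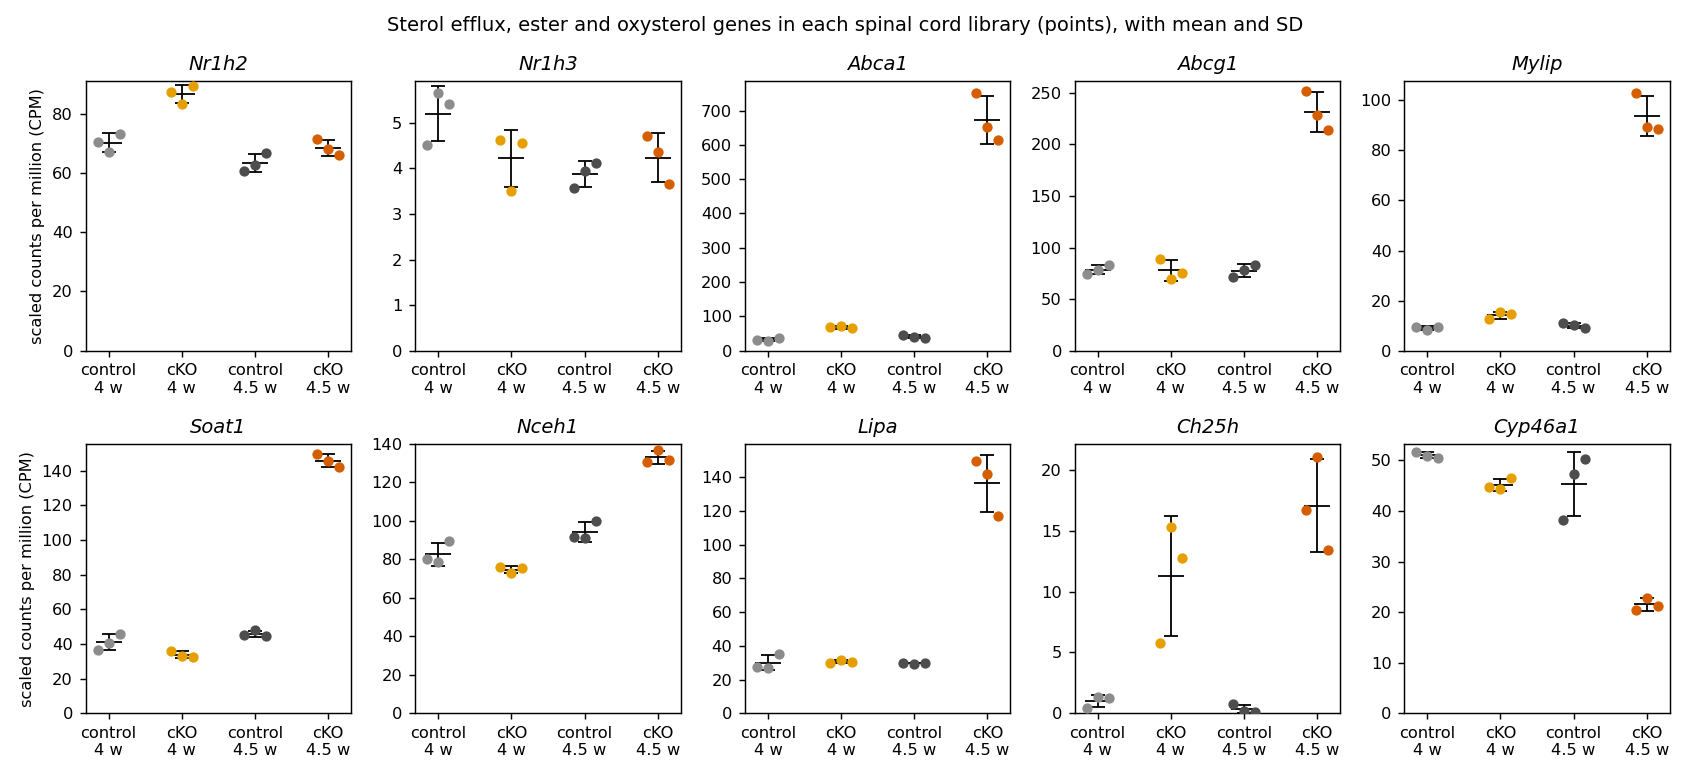
Scaled CPM of each gene in each library (points) by genotype and weeks after tamoxifen, with the mean and SD of 3 libraries; each panel has its own axis, which starts at 0. Abca1, Abcg1, Mylip, Soat1, Nceh1 and Lipa sit high in the cKO-labelled libraries at 4.5 weeks, Ch25h is high in the cKO-labelled libraries at both times, and Cyp46a1 is low in them at 4.5 weeks.

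Of the receptors, Nr1h2 rose slightly at 4 weeks, and neither was called at 4.5 weeks. Nr1h2, which encodes the widely expressed LXR beta, held 70.5, 67.0 and 73.3 CPM in the 4-week controls and 87.2, 83.3 and 89.2 CPM in the cKO-labelled libraries, which do not overlap. It rose by 1.23-fold (log2 0.30 ± 0.06 SE, adjusted p = 0.00128). At 4.5 weeks it held 60.9, 62.7 and 66.9 CPM against 71.5, 68.0 and 66.0 CPM, which overlap, and was not called (log2 0.11, 95% interval -0.01 to 0.23, adjusted p = 0.104). Nr1h3, which encodes LXR alpha of macrophages and liver, lay between 3.51 and 5.66 CPM in all 12 libraries. Its log2 fold change was -0.30 at 4 weeks (95% interval -0.64 to 0.04, adjusted p = 0.16) and 0.13 at 4.5 weeks (-0.21 to 0.47, adjusted p = 0.491), and its groups overlapped at both times.

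Within a library, the log2 ratio of Nr1h3 to Nr1h2 was -3.76 ± 0.20 (SD, n = 3) in the 4-week controls and -4.37 ± 0.18 in the cKO-labelled libraries. At 4.5 weeks it was -4.04 ± 0.05 and -4.02 ± 0.14. The difference of -0.61 at 4 weeks separated the 3 cKO-labelled from the 3 control libraries and had the smallest exact 2-sided permutation p that 3 against 3 libraries can give, 0.1, and the difference of 0.01 at 4.5 weeks had an exact permutation p of 0.9.

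Abca1, which moves cholesterol and phospholipid onto lipid-poor apolipoproteins, was already higher at 4 weeks and far higher at 4.5 weeks. The 4-week controls held 32.7, 28.9 and 36.8 CPM and the cKO-labelled libraries 67.7, 73.4 and 65.3 CPM. The 4.5-week controls had 44.5, 41.1 and 36.2 CPM and their cKO-labelled libraries 749.96, 652 and 614 CPM. Every cKO-labelled library lay above every control at both times. The rise was 2.10-fold at 4 weeks (log2 1.07 ± 0.10 SE, adjusted p = 9.25e-06) and 16.6-fold at 4.5 weeks (log2 4.05 ± 0.11 SE, adjusted p = 6.37e-11), and the effects differed by 2.98 on the log2 scale (± 0.15 SE, adjusted p = 7.67e-08).

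Abcg1, which passes sterol on to lipidated particles, moved later. Controls and cKO-labelled libraries were at 78.5 ± 4.18 and 78.0 ± 10.2 CPM at 4 weeks, overlapping, with a log2 fold change of -0.01 (95% interval -0.21 to 0.20, adjusted p = 0.95). Later, at 4.5 weeks, controls held 71.4, 78.4 and 83.3 CPM against 252, 229 and 214 CPM, without overlap. The rise was 2.98-fold (log2 1.58 ± 0.10 SE, adjusted p = 1.71e-08). The difference between the effects was 1.58 on the log2 scale (adjusted p = 2.23e-06).

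Mylip, the ligase that limits lipoprotein uptake, followed the course of Abca1 at a lower level. It held 9.48, 8.09 and 9.64 CPM in the 4-week controls against 12.5, 15.3 and 14.6 CPM, and 10.9, 10.3 and 8.95 CPM in the 4.5-week controls against 103, 89.5 and 88.5 CPM. The cKO-labelled libraries were above every control at both times. The log2 fold change was 0.64 ± 0.11 SE at 4 weeks (adjusted p = 0.000576) and 3.22 ± 0.11 SE at 4.5 weeks (adjusted p = 1.81e-10), a 9.31-fold rise. The effects differed by 2.58 on the log2 scale (adjusted p = 1.72e-07).

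**Figure D2:**
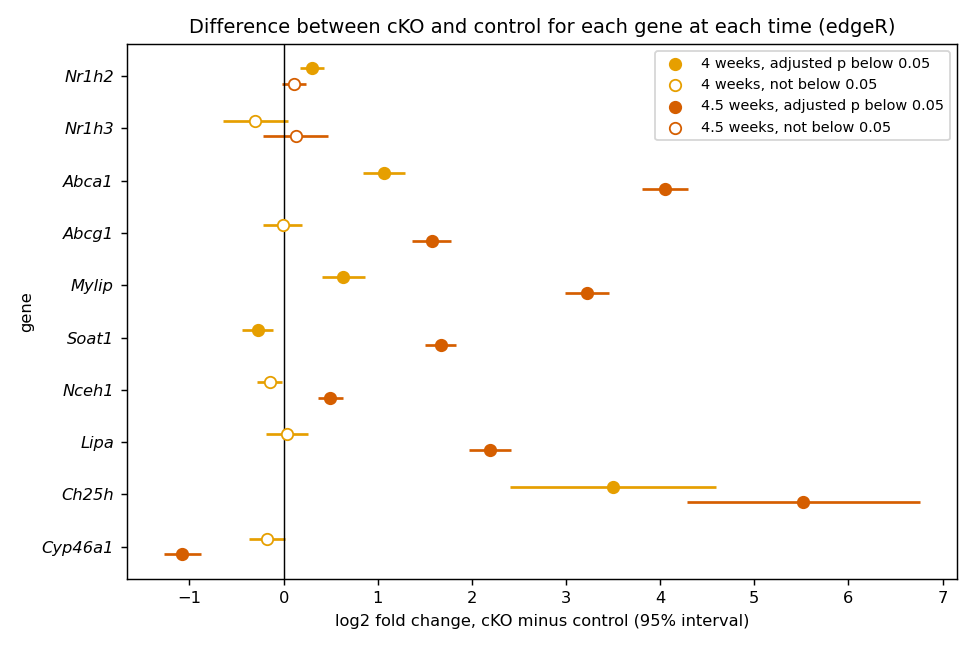
Log2 fold change, cKO minus control, of each gene at 4 weeks (light orange) and 4.5 weeks (dark orange) with its 95% interval from edgeR; filled points have an adjusted p below 0.05. At 4.5 weeks the points run from -1.07 for Cyp46a1 to 5.52 for Ch25h, and at 4 weeks Ch25h, Abca1, Mylip and Nr1h2 lie above 0 as filled points.

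The esterifying enzyme changed direction between the times. Soat1 held 36.8, 40.5 and 45.8 CPM in the 4-week controls and 36.3, 33.2 and 32.4 CPM in the cKO-labelled libraries, all 3 below the lowest control. It fell by 0.27 on the log2 scale (± 0.08 SE, adjusted p = 0.0131), a call that was lost without control library 3 (log2 -0.19, adjusted p = 0.0558), without cKO-labelled library 3 (adjusted p = 0.0556) and with the 6 libraries of that time fitted alone (adjusted p = 0.0543). The controls of 4.5 weeks had 45.2, 47.96 and 44.4 CPM, against 149.7, 146 and 142 CPM in their cKO-labelled counterparts, with no overlap. That rise was 3.18-fold (log2 1.67 ± 0.08 SE, adjusted p = 1.65e-09), and the effects differed by 1.94 on the log2 scale (adjusted p = 1.19e-07).

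Nceh1, the neutral ester hydrolase, changed least among the genes called at 4.5 weeks. It was at 82.8 ± 5.96 and 74.7 ± 1.75 CPM at 4 weeks (log2 -0.15, adjusted p = 0.071). Controls of 4.5 weeks held 91.8, 91.0 and 100.1 CPM and the cKO-labelled libraries 131, 137 and 132 CPM. The rise was 1.41-fold (log2 0.50 ± 0.06 SE, adjusted p = 8.53e-06), and the difference of the effects was 0.65 on the log2 scale (adjusted p = 6.27e-05).

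Soat1 and Nceh1 act in opposite directions on the same ester, so their ratio within a library was also compared. The log2 ratio of Soat1 to Nceh1 was -1.02, -0.92 and -1.17 in the 4.5-week controls and 0.20, 0.09 and 0.11 in the cKO-labelled libraries. It was below 0 in every control and above 0 in every cKO-labelled library of that time. The difference of 1.17 had an exact 2-sided permutation p of 0.1, the smallest possible. At 4 weeks the means were -1.02 ± 0.09 (SD, n = 3) and -1.14 ± 0.08, a difference of -0.12 with an exact permutation p of 0.2.

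**Figure D3:**
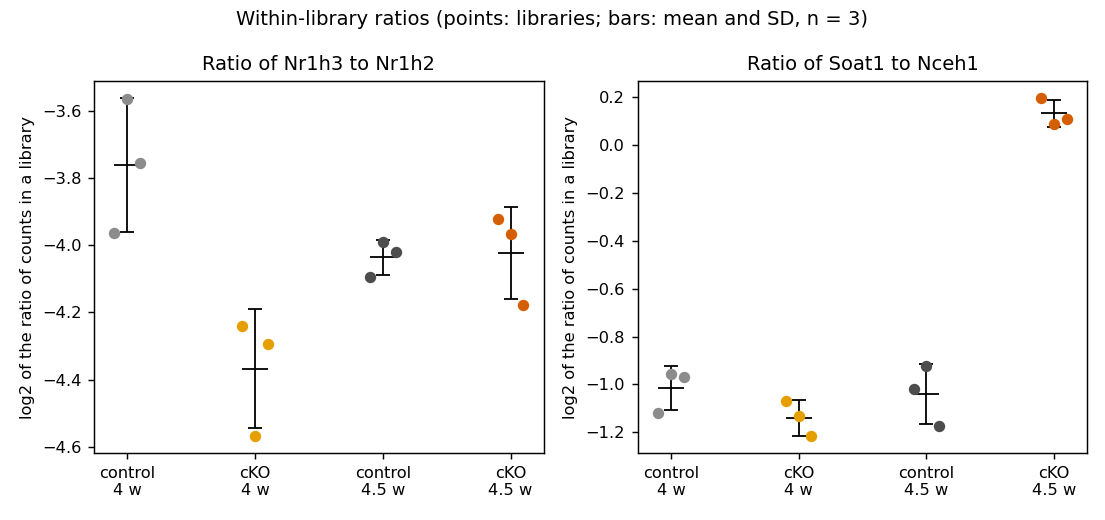
Log2 ratio of Nr1h3 to Nr1h2 (left) and of Soat1 to Nceh1 (right) in each library (points), with mean and SD of 3 libraries per group. The Soat1 to Nceh1 ratio lies between 0.09 and 0.20 in the cKO-labelled libraries at 4.5 weeks and below -0.9 in every other library, and the Nr1h3 to Nr1h2 ratio is lowest in the cKO-labelled libraries at 4 weeks.

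Lipa, lysosomal acid lipase, was not called at 4 weeks and rose at 4.5 weeks. The 4-week means were 29.97 ± 4.35 CPM in controls and 30.6 ± 0.97 CPM in the cKO-labelled libraries (log2 0.03, 95% interval -0.19 to 0.25, adjusted p = 0.843). Among 4.5-week libraries, controls held 30.03, 29.5 and 29.9 CPM and the cKO-labelled libraries 149.6, 142 and 117 CPM. The rise was 4.57-fold (log2 2.19 ± 0.10 SE, adjusted p = 2.34e-09), and the effects differed by 2.16 on the log2 scale (adjusted p = 4.94e-07).

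Ch25h, the macrophage cholesterol hydroxylase, had low counts in controls and rose at both times. Its counts were 18, 43 and 49 in the 4-week controls against 202, 606 and 474, and 31, 8 and 6 in the 4.5-week controls against 671, 770 and 478. As CPM this was 0.444, 1.32 and 1.25 against 5.79, 15.3 and 12.8, and 0.778, 0.207 and 0.134 against 16.7, 21.1 and 13.4. Every cKO-labelled library was above every control. The rise was 11.3-fold at 4 weeks (log2 3.50 ± 0.50 SE, adjusted p = 0.000186) and 45.9-fold at 4.5 weeks (log2 5.52 ± 0.57 SE, adjusted p = 2.11e-06).

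The mean Ch25h level of the cKO-labelled libraries was 11.3 ± 4.92 CPM at 4 weeks and 17.1 ± 3.85 CPM at 4.5 weeks, and the libraries of the 2 times overlapped. The difference of its effects, 2.02 on the log2 scale (95% interval 0.39 to 3.65), was called only just (adjusted p = 0.0478) and lost the call in 13 of 19 alternatives, among them a sex term in the model (1.84, adjusted p = 0.151) and a replicate block (adjusted p = 0.0638). With single libraries left out it was kept only without control library 1 or cKO-labelled library 2 of 4 weeks, or without control library 1 of 4.5 weeks (3.13, adjusted p = 0.0064). Without control library 1 of 4.5 weeks, which held the highest count of its group, its log2 fold change at 4.5 weeks was 6.63, and without libraries 1 and 2 it was 6.95. Ch25h shares 159 exon bases (11.5% of its exons) with Gm26902 on the opposite strand in the GENCODE M21 annotation, and the library kit does not mark strand. Ch25h and Lipa are neighbouring protein-coding genes, and at 4 weeks Ch25h was called and Lipa was not.

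Cyp46a1, the cholesterol hydroxylase of neurons, was the gene of the 10 that fell at 4.5 weeks. Levels of 38.3, 47.4 and 50.3 CPM in controls stood against 20.4, 22.9 and 21.3 CPM in the cKO-labelled group, with no overlap. It was 2.11-fold lower (log2 -1.07 ± 0.09 SE, adjusted p = 2.63e-07). Its levels at 4 weeks were 51.7, 50.9 and 50.4 CPM in controls, and in the cKO-labelled libraries 44.6, 44.2 and 46.5 CPM, which did not overlap either, but the log2 fold change of -0.18 was not called (95% interval -0.36 to 0.01, adjusted p = 0.129). The call was made with the 6 libraries of that time fitted alone (adjusted p = 0.0448) and without control library 1 of 4.5 weeks (adjusted p = 0.0341). The effects differed by -0.90 on the log2 scale (adjusted p = 9.18e-05).

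The difference between the effects at the 2 times was called higher for 7 of the 10 genes and lower for 1, where 18.7% of all tested genes were called higher and 21.9% lower. It was not called for Nr1h3 (0.43, adjusted p = 0.15) or Nr1h2 (-0.19, adjusted p = 0.077). Between the control groups, Nceh1 alone was called, higher at 4.5 than at 4 weeks by 0.19 on the log2 scale (adjusted p = 0.0499), and that call was lost in 16 of 19 alternatives, including the loss of any single library other than control library 3 of 4 weeks. Of all tested genes, 9.53% were called higher and 7.21% lower between the controls. The control groups differ in time, sex and deposited table together, which cannot be told apart there.

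The receptors' partners and cofactors, which set whether LXR represses or activates, were called in both directions. Of 8 such genes, 1 was called higher and 2 lower at 4 weeks, and 5 higher and 1 lower at 4.5 weeks, with list medians of -0.06 and 0.22 on the log2 scale. Rxra, the retinoid X receptor alpha partner, was at 68.8 ± 4.26 CPM in 4.5-week controls and 118 ± 2.55 CPM in the cKO-labelled libraries (log2 0.78, adjusted p = 2.59e-07). The coactivator Ncoa1 fell at both times (log2 -0.35 and -0.56, adjusted p = 0.00462 and 4.33e-05). Ncor1, a corepressor, fell at 4 weeks (log2 -0.31, adjusted p = 0.00782).

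Genes listed as other LXR targets were called in both directions. Of 15, 6 were called higher and 6 lower at 4 weeks, and 11 higher and 4 lower at 4.5 weeks (medians 0.14 and 0.69). Whether each listed gene, Ttc39b and Abca7 among them, is a target of LXR in this tissue was not tested. Lpl, lipoprotein lipase, was at 15.3 ± 1.59 and 81.8 ± 6.93 CPM at 4 weeks and at 13.4 ± 3.33 and 539 ± 55.3 CPM at 4.5 weeks (log2 2.41 and 5.33, adjusted p = 2.15e-07 and 1.15e-10). Apoe, the main lipoprotein of the nervous system and the acceptor of Abca1, was at 1732 ± 88.7 against 22432 ± 4431 CPM at 4.5 weeks (log2 3.70, adjusted p = 4.6e-10). Mertk, a receptor for engulfment, was at 14.2 ± 1.56 against 153 ± 12.3 CPM (log2 3.43, adjusted p = 7.95e-09).

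The desaturase Scd1, also an LXR target, fell from 732 ± 17.1 CPM in 4.5-week controls to 249 ± 5.94 CPM in the cKO-labelled libraries (log2 -1.55, adjusted p = 6.66e-08), and by 1.30 on the log2 scale at 4 weeks (adjusted p = 2.66e-06). Scd2 (log2 -1.18, adjusted p = 1.1e-06) and Fasn, fatty acid synthase (log2 -1.05, adjusted p = 2.16e-07), fell likewise at 4.5 weeks, as did Ttc39b (log2 -1.20, adjusted p = 3.48e-08). At 4 weeks Scd2 (log2 -1.03), Fasn (-0.70), Abca7 (-0.39), Smpdl3a (-0.27) and Ttc39b (-0.24) were also among the genes called lower. Abca7 (log2 0.32, adjusted p = 0.00383) and Smpdl3a (log2 0.88, adjusted p = 2.09e-07) were called higher at 4.5 weeks. The calls of Smpdl3a with a sex term and of Ttc39b with that time fitted alone were lost.

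Genes that import or move sterol inside the cell were called in both directions. Of 15, 1 was called higher and 7 lower at 4 weeks, and 7 higher and 7 lower at 4.5 weeks (medians -0.18 and -0.16). Npc2, which hands cholesterol out of the lysosome, was at 135 ± 5.13 CPM in 4.5-week controls and 621 ± 31.1 CPM in the cKO-labelled libraries (log2 2.20, adjusted p = 4.89e-10), after 0.48 at 4 weeks (adjusted p = 0.000684). Stard4, a cytosolic sterol carrier, fell from 63.9 ± 3.64 to 12.9 ± 1.05 CPM at 4.5 weeks (log2 -2.31, adjusted p = 1.76e-10) and by 0.86 on the log2 scale at 4 weeks (adjusted p = 2.86e-06).

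Abcg4 and Abca2, from the same transporter families as Abcg1 and Abca1, were called lower at 4.5 weeks. Abcg4, a relative of Abcg1, was at 67.9 ± 5.96 against 31.8 ± 1.60 CPM at 4.5 weeks (log2 -1.10, adjusted p = 3.35e-08). Abca2, known from oligodendrocytes, fell by 0.82 on the log2 scale at 4 weeks (adjusted p = 4.73e-05) and by 1.07 at 4.5 weeks (adjusted p = 7.71e-07). Npc1, the lysosomal partner of Npc2, fell by 0.59 on the log2 scale at 4 weeks (adjusted p = 6.15e-05) and rose by 0.31 at 4.5 weeks (adjusted p = 0.00259), where controls held 163 to 178 CPM and cKO-labelled libraries 203 to 218 CPM. Osbp (log2 -0.28), Vldlr (-0.24) and Abca3 (-0.17) were called lower at 4.5 weeks, and the calls of Osbp and Vldlr were lost without control libraries 1 and 2 of that time.

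Of the 12 genes listed as oxysterol and sterol ester enzymes, 10 were tested and Cyp7a1 and Cel were not. At 4 weeks 3 were called higher and 4 lower, and at 4.5 weeks 4 higher and 6 lower (medians -0.12 and -0.45). Cyp51, an enzyme of this list, makes sterol and no oxysterol. It was at 178 ± 13.9 against 39.9 ± 1.10 CPM at 4.5 weeks (log2 -2.15, adjusted p = 1.02e-10), and had also fallen at 4 weeks, by 0.98 on the log2 scale (adjusted p = 2.25e-07).

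Gpr183 is the receptor for the oxysterol made by Ch25h and a further enzyme, Cyp7b1. Gpr183 was at 1.11 ± 0.11 against 4.68 ± 0.85 CPM at 4 weeks and 1.02 ± 0.06 against 16.9 ± 1.47 CPM at 4.5 weeks (log2 2.07 and 4.05, adjusted p = 1.35e-06 and 7.75e-10). Cyp7b1 was at 8.34 ± 0.39 against 5.99 ± 0.37 CPM at 4.5 weeks, and was among the 6 genes of this list called lower then. Hsd3b7, an enzyme that clears oxysterols, was at 10.1 ± 1.53 against 20.5 ± 0.40 CPM at 4.5 weeks (log2 1.02, adjusted p = 7.05e-06). Soat2, the other esterifying enzyme, was called higher at both times (adjusted p = 0.0241 and 0.00348) but stayed at or below 0.53 CPM in every library, and at 4 weeks it was no longer called once sex entered the model (adjusted p = 0.0651). Lipe, hormone-sensitive lipase, rose by 0.45 on the log2 scale at 4.5 weeks (adjusted p = 0.000279).

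Of 10 lipid droplet genes, 3 were called higher and 1 lower at 4 weeks and 5 higher and 2 lower at 4.5 weeks (medians 0.19 and 0.85). Plin2, the droplet coat protein of loaded macrophages, was at 22.2 ± 1.34 against 36.0 ± 4.61 CPM at 4 weeks and 19.1 ± 1.03 against 257 ± 34.1 CPM at 4.5 weeks (log2 0.70 and 3.75, adjusted p = 0.000292 and 1.04e-10). Pnpla2, the droplet triglyceride lipase, rose by 1.27 on the log2 scale at 4.5 weeks (adjusted p = 4.37e-07). Fitm2, which helps droplets form, fell by 0.77 on that scale at 4.5 weeks (adjusted p = 5.46e-07), and Plin3 fell by 0.99 at 4 weeks (adjusted p = 5.57e-05) and by 0.40 at 4.5 weeks (adjusted p = 0.0104).

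**Figure D4:**
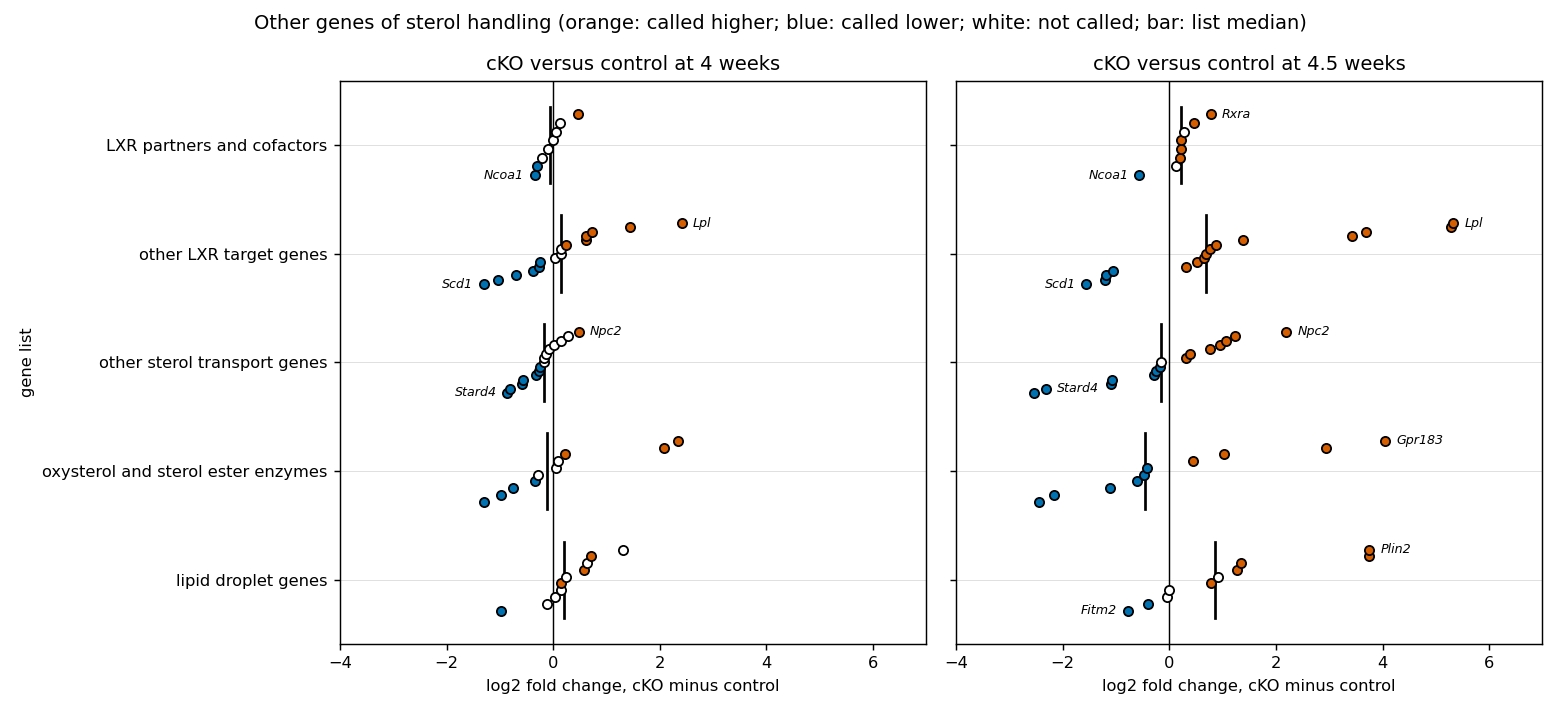
Log2 fold change, cKO minus control, of the tested genes of 5 further lists at 4 weeks (left) and 4.5 weeks (right); each point is a gene, orange when called higher, blue when called lower and white when not called, and the vertical bar is the list's median. Lpl, Gpr183 and Plin2 lie far to the right at 4.5 weeks, and Scd1 and Stard4 lie to the left.

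Markers of other cell types moved with these genes. Microglia and macrophage markers, 12 in all, summed to 419 to 425 CPM in the 4-week controls and 938 to 1539 CPM in the cKO-labelled libraries, and to 386 to 406 against 5476 to 5931 CPM at 4.5 weeks. Of them, 9 were called higher at 4 weeks and 11 at 4.5 weeks, and none was called lower. The 4-week cKO-labelled library with the lowest sum, library 1 at 938 CPM, also held the lowest Ch25h, Mylip and Lipa of its group. The same library held the highest Abcg1, Soat1, Nceh1 and Nr1h3 of that group. No marker of any list was at 0 in every library of a group, and the part of these cells in the members' changes was not tested.

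Set against the mean log2 level of those 12 markers in the same library, the genes that rose separate. The log2 level of Abca1 minus that mean was 1.56 ± 0.11 (SD, n = 3) in 4.5-week controls and 2.25 ± 0.16 in the cKO-labelled libraries, so its increase exceeded that mean. The value of Ch25h was -5.33 ± 0.92 and -3.07 ± 0.33 at 4.5 weeks, a larger excess. For Mylip it was -0.45 ± 0.13 and -0.59 ± 0.13, nearly level. Lower values in the cKO-labelled libraries were found for Lipa (1.12 ± 0.21 and -0.06 ± 0.20), Soat1 (1.74 ± 0.23 and 0.05 ± 0.05), Abcg1 (2.50 ± 0.32 and 0.71 ± 0.13) and Nceh1 (2.78 ± 0.27 and -0.08 ± 0.04), so their increase was smaller than that mean. At 4 weeks the value of Abca1 was 1.07 ± 0.15 in controls and 0.77 ± 0.32 in the cKO-labelled libraries, which overlap, and that of Ch25h was -4.02 ± 0.79 and -1.94 ± 0.41. The log2 fold changes of the 12 markers themselves ran from 0.73 to 6.57 at 4.5 weeks. The highest, that of Cd68, was above those of Abca1 (4.05) and Ch25h (5.52). These values are a description and were not tested.

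Beside the fall of Cyp46a1, 8 neuron markers summed to 7644 to 8097 CPM in the 4.5-week controls and 2233 to 2429 CPM in the cKO-labelled libraries, a 3.34-fold difference, and all 8 were called lower. At 4 weeks the sums were 6599 to 7345 and 5959 to 6230 CPM, and 3 of the 8 were called lower. The oligodendrocyte markers, all 10 called lower at both times, summed to 33012 to 35600 against 14000 to 19088 CPM at 4 weeks and 30130 to 30588 against 10380 to 11331 CPM at 4.5 weeks. Of 8 astrocyte markers 6 were called lower at each time, while Aldh1l1 rose at both (log2 0.26 and 0.67) and Gfap at 4.5 weeks (log2 0.37, adjusted p = 0.0166). Of 5 endothelial markers 1 was called higher at 4 weeks and 3 at 4.5 weeks. Markers of sensory ganglion and Schwann cells summed to 70.7 to 156 CPM in the 4-week controls and 33.9 to 77.9 CPM in the cKO-labelled libraries, where Avil (log2 5.41) and Trpv1 (5.26) were called higher and Pmp2 (-2.88) lower. At 4.5 weeks these markers summed to 320 CPM in control library 1 of 4.5 weeks and to 11.2 and 11.5 CPM in its fellows, against 18.8 to 22.4 CPM in the cKO-labelled libraries. That library also held the lowest Cyp46a1, Abcg1, Nr1h2 and Nr1h3 of its group, and the highest Ch25h, Abca1, Mylip and Lipa. The part of neurons and of ganglion tissue in these values was not tested.

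The genes whose log2 CPM most resembled that of Abca1 over the 12 libraries, among 13029 compared, were Sowahc, H6pd and Tgfbr1 (Pearson r of 0.997, 0.996 and 0.996). Tgfbr1, a receptor of transforming growth factor beta, was at 34.4 ± 1.90 CPM in 4.5-week controls and 214 ± 33.9 CPM in the cKO-labelled libraries. Closest to Ch25h were Plp2, S100a11 and Emp3 (0.992, 0.985 and 0.984), of which S100a11 was at 7.17 ± 0.49 against 47.4 ± 17.4 CPM at 4 weeks. Closest to Cyp46a1 were Slc30a3, Nxph4 and Syngr3 (0.997, 0.994 and 0.994). Slc30a3, the zinc transporter of synaptic vesicles, was at 33.8 ± 5.02 against 12.9 ± 1.48 CPM at 4.5 weeks. These libraries share their group differences, so r describes likeness only.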

How the data were processed

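The authors deposited estimated counts per gene, unscaled, in separate tables for the 2 times; poly(A) RNA had been sequenced with TruSeq kit v2 libraries, per the labels' protocols. The submitters' processing notes list STAR, RSEM and mm39, without versions. Columns were assigned by the time of the table and by genotype and number in the column name. After rounding, edgeR 4.0.16 (R 4.3.3) was used to filter low counts by group, to scale by trimmed mean of M values and to test 4 contrasts in 1 model of 12 libraries, with Benjamini-Hochberg adjustment. The model was also run on simulated counts that held far fewer changed genes than were called here. That run does not measure error rates in these data. Ratios were compared with exact permutation tests.

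Alternatives were size factors of DESeq2, no filter, limma-voom (limma 3.58.1), DESeq2's own Wald test (version 1.42.0), a replicate block, a sex term, each time fitted alone, omission of 4.5-week control libraries 1 and 2, and omission of each library in turn. The members and lists were chosen with earlier results of these data known. From the other lists, the rule named at most the 3 called genes with the smallest p per contrast and those called against most of their list, and for Abca1, Ch25h and Cyp46a1 the 3 genes of highest correlation at mean log2 CPM of 1 or more. Exon lengths come from GENCODE M21. The animals were independent, per the labels' protocols.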

Additional observations from a re-analysis of the deposited data

Results flagged for a closer look

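For 8 of the 10 genes the difference between cKO and control was itself different at 4.5 and 4 weeks by edgeR's test of that difference. Of all tested genes, 18.7% were called higher and 21.9% lower by the same test. On the log2 scale, the 4.5-week effect minus the 4-week effect was 2.98 for Abca1, 2.58 for Mylip, 2.16 for Lipa, 2.02 for Ch25h, 1.94 for Soat1, 1.58 for Abcg1, 0.645 for Nceh1 and -0.897 for Cyp46a1. Soat1 was called lower at 4 weeks and higher at 4.5 weeks. The test of Ch25h passed by a small margin (adjusted p = 0.0478) and failed in 13 of 19 alternatives. The 4-week controls were male and the 4.5-week controls female, and with a sex term in the model 6 of the 7 higher differences were still called. That term rests on the 4-week cKO-labelled libraries, the only group with both sexes, so it cannot decide the part of sex.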

How the results depend on the processing

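At 4.5 weeks, each of the 10 genes stayed on its side of the threshold in all 20 alternatives, and at 4 weeks Abca1, Mylip, Ch25h and Nr1h2 did so in all 19. Members called lower at 4 weeks, 1 as reported, numbered 2 with the Wald test of DESeq2 and 0 to 2 with single libraries left out. All genes called lower at 4 weeks numbered 3313, and 1914 with a sex term. For the difference of effects, members called lower numbered 1 to 2 with single libraries left out, 2 being without control library 3 of 4 weeks, which adds Nr1h2 (adjusted p = 0.0498).

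Between the controls, members called higher, 1 as reported, numbered 2 with DESeq2's Wald test, 0 with limma-voom, a replicate block, a sex term or without control libraries 1 and 2 of 4.5 weeks, and 0 to 3 with single libraries left out. Members called lower there numbered 0 to 1, the 1 being Ch25h without control library 1 of 4.5 weeks (log2 -2.54, adjusted p = 0.0302). All genes called between the controls numbered 1837 higher and 1390 lower, 0 and 0 with a sex term, and 332 and 105 without control libraries 1 and 2 of 4.5 weeks. With single libraries left out they ranged from 831 to 2189 higher and from 546 to 1898 lower, with fewest without control library 1 of 4 weeks. The sex term rests on the 4-week cKO-labelled libraries, since each control group held a single sex. The causes were not tested.

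Signs changed only for differences near 0 that were never called. With single libraries left out, Abcg1 ranged from -0.129 to 0.0696 and Lipa from -0.0338 to 0.157 at 4 weeks, and between the controls Abcg1 ranged from -0.0671 to 0.0436 and Lipa from -0.072 to 0.119. Without control libraries 1 and 2 of 4.5 weeks, Abcg1 was at 0.0862 and Mylip at -0.0211 between the controls. The difference in the ratio of Nr1h3 to Nr1h2 at 4.5 weeks ranged from -0.0367 to 0.0913.

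Replicate numbers did not pair the samples: the deviations of same-numbered libraries from their group means correlated at -0.165 to -0.00867 at 4 weeks and -0.00321 to 0.0570 at 4.5 weeks. The replicate block left the members' counts at 4 and 4.5 weeks at 4 higher and 1 lower and at 7 higher and 1 lower, and ended the calls of Ch25h in the difference of effects and of Nceh1 between the controls. The low level of Ch25h in the 4.5-week controls, 6 to 31 counts per library, limits the precision of its fold change.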
